A study of Mus musculus with 8 samples.

Results

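The carnitine shuttle comprises 10 mouse genes, chosen by function and not by their level in these libraries: Cpt1a, Cpt1b, Cpt1c, Cpt2, Slc25a20, Crat, Slc22a5, Bbox1, Tmlhe and Aldh9a1. All 10 were found among the 55573 gene identifiers of the deposited count table, 9 had at least 1 count, and 8 had enough counts to be tested. Heart RNA was sequenced from male C57BLKS/J mice aged 24 weeks, in 4 db/m and 4 db/db libraries. The db allele is a splice mutation of the leptin receptor gene. db/db mice carry it on both chromosomes and become obese and diabetic, and db/m mice carry 1 copy and serve as the lean controls. The allele is germline, so every tissue carries it, and effects within the heart and through the obese, diabetic state cannot be told apart. The libraries were made from bulk heart RNA, and their mix of cell type markers differed, as described below. The labels name no treatment and do not tie each library to its own animal, so p-values cover only the spread among these libraries.

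Long-chain acyl-CoA cannot cross the inner mitochondrial membrane. Carnitine palmitoyltransferase 1 on the outer membrane moves the acyl group to carnitine, the carrier encoded by Slc25a20 exchanges acylcarnitine for free carnitine across the inner membrane, and carnitine palmitoyltransferase 2 returns the acyl group to coenzyme A for beta-oxidation. The heart draws much of its ATP from this route. Cpt1b is known as the muscle and heart isoform of the first step and is inhibited by malonyl-CoA. Carnitine itself is made mainly in liver and kidney and is taken up by cardiomyocytes through the transporter encoded by Slc22a5.

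The libraries held between 19541757 and 22249911 counts. All 8 expressed the ventricular cardiomyocyte markers, whose summed level ran from 29900 to 41000 CPM (counts scaled to the library's size by the trimmed mean of M values). db/m replicates 1 and 3 stood apart. All 10 adipocyte markers were higher in these 2 libraries than in each of the other 6, with summed levels of 366 and 946 CPM against 24.5 to 37.4 CPM. All 6 atrial cardiomyocyte markers were likewise higher, at 1630 and 3890 CPM against 16.0 to 118 CPM, while 6 of 10 ventricular markers were lower than in each of the other 6. The summed fibroblast markers were highest in this pair as well, at 1880 and 1710 CPM against 982 to 1400 CPM. Of the 6 fibroblast markers, 3 were above all other libraries. Genotype differences below are therefore given with and without these 2 libraries. The part of other tissue in the differences was not tested. In bulk heart RNA, fewer cells of a type and less RNA per cell cannot be told apart.

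How the shuttle genes could be counted differed among the members. Cpt1b (ENSMUSG00000078937, mm10 chr15:89416405-89425863, minus strand) shares 2744 of its 3372 exon bases, or 81.4%, with Gm44502 (ENSMUSG00000116461, chr15:89416405-89429696), an annotated read-through of Chkb into Cpt1b on the same strand. Gm44502 has 0 exon bases of its own and had 0 counts in every library. The same held across the table. All 772 genes whose exons are wholly shared with a gene on the same strand had 0 counts, as did all 455 genes wholly shared with a gene on the opposite strand only, while 50.6% of the 43656 genes sharing no exon base were at 0. The rule for such reads is not given in the labels, but these zeros are what leaving them out would give, and a Cpt1b count can then be read as coming mainly from 628 bases. These are 85 bases of a coding exon of transcript Cpt1b-201 (chr15:89422125-89422209), 29 bases of the retained-intron transcript Cpt1b-202 (chr15:89424443-89424471), and non-coding 5′ exon bases of Cpt1b-203 (448 bases, chr15:89425348-89425795) and Cpt1b-201 (66 bases, chr15:89425798-89425863). The map of exons at this locus shows how little of the coding sequence is left to Cpt1b.

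**Figure D1:**
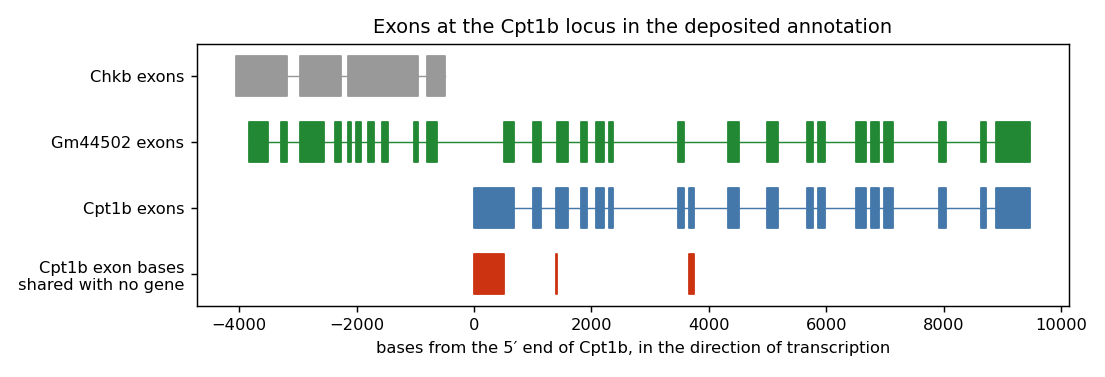
Exon positions at the Cpt1b locus, in bases from the 5′ end of Cpt1b in the direction of transcription (x axis), for Chkb, the read-through gene Gm44502, Cpt1b, and the 628 exon bases of Cpt1b that no other gene shares. Those bases lie in 3 clusters near the 5′ side, and the exons further downstream are all shared with Gm44502.

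Other members were affected less or in another way. Tmlhe (ENSMUSG00000079834), which encodes the first enzyme of carnitine synthesis, lies on the unlocalized scaffold GL456233.1 (159647 to 334183) in this annotation and had 0 counts in all 8 libraries. All 86 genes on 23 unplaced or unlocalized scaffolds were at 0, so the zeros of Tmlhe say nothing about its level. Crat shared 8.72% of its exon bases (59 with Dolpp1 and 411 with Gm16323, both on the opposite strand) and Cpt1c 6.53% (366 with 6530437J22Rik, opposite strand). In those 3 overlapping genes the counts per library ran from 128 to 222 for Dolpp1, were 0 throughout for Gm16323, and reached at most 1 for 6530437J22Rik. Cpt1a, Cpt2, Slc25a20, Slc22a5, Bbox1 and Aldh9a1 shared none. Slc22a5 transcripts hold a stretch of 831 bases at least 95% identical to the paralogue Slc22a21, and Slc25a20 transcripts hold stretches of up to 366 bases shared with 34 other genes, so reads there are uncertain.

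Across the 8 libraries the order of the members by level per kilobase of exon was led by Cpt2, with a mean of 150 CPM per kilobase, and by Crat, with 120. Cpt2 was above Crat in 7 of 8 libraries. Slc25a20 followed with 40.4 CPM per kilobase and lay below Crat and above Slc22a5 in all 8. Slc22a5 (14.2), Aldh9a1 (13.0) and Cpt1a (11.3 CPM per kilobase) formed a group whose neighbours overlapped, since Slc22a5 was above Aldh9a1 in 6 of 8 libraries and Aldh9a1 above Cpt1a in 5 of 8. Cpt1b had 0.974 CPM per kilobase over its full exon length and Cpt1c 0.413. Counted per kilobase of its own bases, the db/m level of Cpt1b was 3.38 ± 0.994 CPM and the db/db level 7.08 ± 1.68 CPM (SD, n = 4). On that scale it was still below Cpt1a, whose level was 9.52 ± 2.19 CPM per kilobase in the db/m and 13.1 ± 2.54 in the db/db libraries, and above Cpt1c. Both the size and the direction of the gap between Cpt1a and Cpt1b are uncertain, since they depend on how reads in shared bases were treated. They also depend on which transcripts are present. Of the 628 own bases, 448 belong to Cpt1b-203 and 29 to Cpt1b-202, and a shorter divisor would raise the Cpt1b level.

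No member was called different between the genotypes with edgeR's quasi-likelihood test and Benjamini-Hochberg adjustment over all 17411 genes tested (0 of 8, background 0.00574% of genes). At an unadjusted p under 0.05, 5 of 8 members were higher in db/db and 0 lower, where 5.12% of all genes tested were higher and 7.84% lower. These 5 were Slc25a20, Cpt1b, Cpt2, Cpt1a and Crat, that is, the enzymes and the carrier that act at the mitochondrion. The uptake transporter Slc22a5, the brain isoform Cpt1c and the synthesis enzyme Aldh9a1 had log2 fold changes of 0.00, 0.00 and 0.07. A positive value was found in 6 of 8 members, against 47.7% of all genes tested. The median log2 fold change of the 8 tested members was 0.45, against -0.02 over all genes tested. On leaving out db/m replicates 1 and 3 the median stayed at 0.45, and 4 members were higher at an unadjusted p under 0.05 (background 5.63%). The set was not the same, being Slc25a20, Cpt1b, Cpt1a and Cpt1c. Cpt2 and Crat fell from 0.64 and 0.44 to 0.36 and 0.22 and no longer passed. Cpt1c, a gene of low counts, rose from 0.00 to 0.96. In 2 of 8 members, Cpt1b and Slc25a20, every db/db library lay above every db/m library, where 5.04% of genes did so. Without db/db replicate 3 this held for 4 of 8, Cpt2 and Crat being added (background 14.5%, either direction), and without db/m replicates 1 and 3 for 5 of 8, of which 1, Aldh9a1, was lower in db/db (background 21.6%, either direction).

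**Figure D2:**
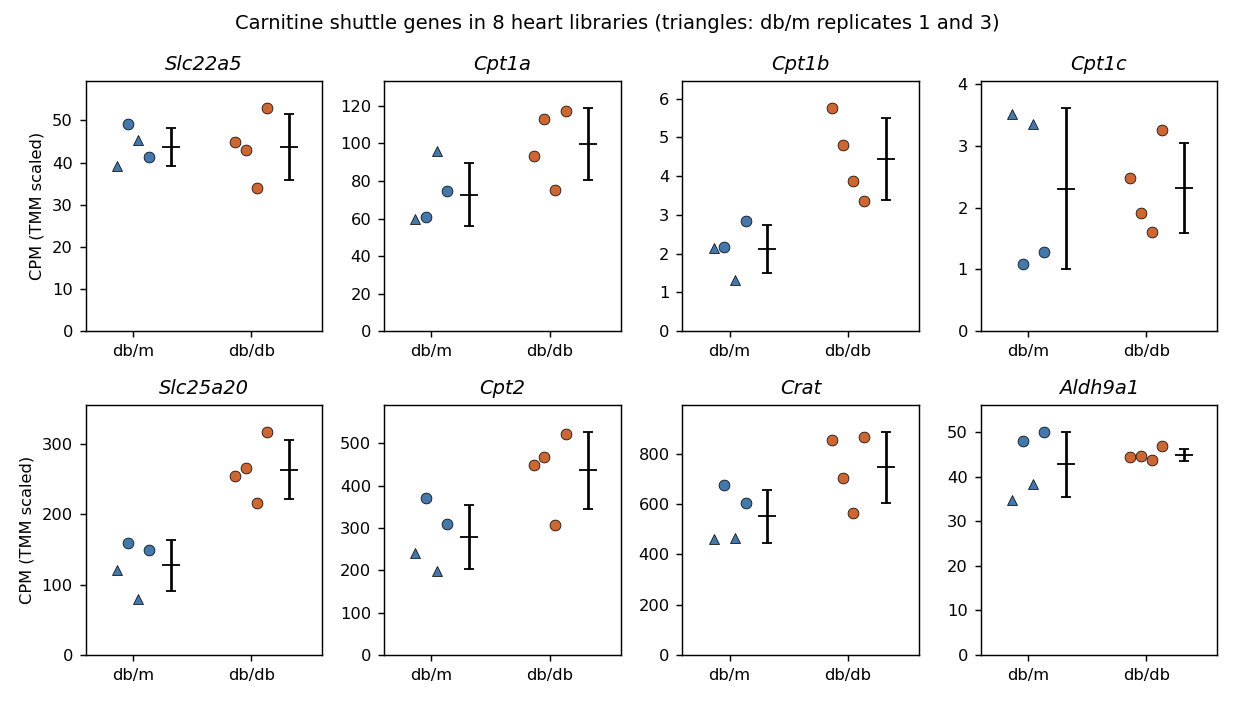
Level of each tested shuttle gene in CPM (y axis, linear from 0) in the 4 db/m and 4 db/db libraries. Points are libraries, triangles mark db/m replicates 1 and 3, and the bar beside them is the mean ± SD. In Slc25a20 and Cpt1b the 4 db/db points all lie above the 4 db/m points, and in the other 6 genes the groups overlap.

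Slc25a20 (ENSMUSG00000032602, mm10 chr9:108662088-108684641, plus strand) encodes the carnitine-acylcarnitine translocase of the inner membrane. Its level was 121, 160, 79.6 and 150 CPM in db/m replicates 1 to 4 and 254, 266, 216 and 318 CPM in db/db replicates 1 to 4. The lowest db/db library, at 216 CPM, was above the highest db/m library, at 160 CPM. The group means were 128 ± 36.2 and 264 ± 42.3 CPM (SD, n = 4), a 2.06-fold difference. The log2 fold change was 1.04 (SE 0.22, 95% interval 0.55 to 1.53) and the adjusted p was 0.146 in edgeR. Of all genes tested, 89 had a smaller p, and 231 had a larger positive fold change. The call depended on the tool and on 1 library. DESeq2 gave an adjusted p of 0.00172 (background 1.77%), limma-voom with sample weights 0.0257 (background 0.580%), and edgeR without db/m replicate 3 gave a log2 fold change of 0.88 and an adjusted p of 0.0274 (background 0.600%). With both db/m replicates 1 and 3 left out the log2 fold change was 0.76 (95% interval 0.44 to 1.07, edgeR adjusted p = 0.0573, background 0.256%).

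The nuclear receptors of the PPAR family are known to bind a direct repeat of AGGTCA spaced by 1 base, and estrogen-related receptors a TCAAGGTCA half-site, in many genes of fatty acid oxidation. RefSeq promoter windows (GRCm38.p6, 250 bases before to 50 after the start) were at hand for 7 of the 10 members, not for Cpt1b, Crat or Tmlhe. Searching both strands for 2 copies of AGGTCA with any 1 base between them and at most 2 mismatches found 1 match each in Slc25a20 and Aldh9a1, the members with a 2.06-fold and a 1.05-fold difference, and 3.86% of 32851 promoters hold such a match. The Slc25a20 match begins 6 bases after the RefSeq start (chr9:108662134-108662162), and the Aldh9a1 match 144 bases before it (chr1:167349839-167349867). Both lie on the gene's strand, shown with 8 bases on either side and the match in capitals, because they set a member with a large difference beside one with a difference near 0.
Slc25a20: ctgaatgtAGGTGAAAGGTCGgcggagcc
Aldh9a1: aattatctAGGCCAAAGGTCTtccagttc
No member's window held TCAAGGTCA with at most 1 mismatch, which 7.46% of promoters do. A match is a description of letters and not of binding, and these data do not measure binding. The stretches just upstream of the deposited starts of Slc25a20 (chr9:108661886-108662087, plus strand, 202 bases) and Cpt2 (chr4:107923611-107923839, minus strand, 229 bases) are given because the levels of these genes moved together across libraries, as described below.
Slc25a20 upstream: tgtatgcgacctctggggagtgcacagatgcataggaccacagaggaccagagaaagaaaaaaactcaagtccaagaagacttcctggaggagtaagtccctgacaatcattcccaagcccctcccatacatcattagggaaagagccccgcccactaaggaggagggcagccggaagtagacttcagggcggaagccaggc
Cpt2 upstream: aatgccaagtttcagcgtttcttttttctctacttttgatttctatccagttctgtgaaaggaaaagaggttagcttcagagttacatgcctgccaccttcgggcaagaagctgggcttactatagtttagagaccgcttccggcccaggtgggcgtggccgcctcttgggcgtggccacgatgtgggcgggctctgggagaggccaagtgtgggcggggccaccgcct
The GC content was 54.0% for Slc25a20 and 55.5% for Cpt2, and neither stretch holds a match to either motif.

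The isoforms of the first step were measured very unequally. Cpt1b had only 49, 44, 32 and 60 counts in db/m replicates 1 to 4 and 107, 102, 84 and 63 counts in db/db replicates 1 to 4. In CPM these were 2.15, 2.16, 1.32 and 2.85 against 5.76, 4.79, 3.87 and 3.36. The lowest db/db library, 3.36 CPM, was above the highest db/m library, 2.85 CPM. The log2 fold change was 1.07 (SE 0.29, 95% interval 0.42 to 1.71) and the adjusted p was 0.245 in edgeR, and DESeq2 gave an adjusted p of 0.0479. Over the other 6 libraries, without db/m replicates 1 and 3, it was 0.82 (95% interval 0.16 to 1.48). Where along the gene its reads fell was not analysed here. If reads in shared bases were left out, a difference in transcript use and one in the level of the whole gene cannot be told apart.

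Cpt1a (ENSMUSG00000024900, chr19:3322334-3385733, plus strand), the isoform known from liver, stood at 60.0, 60.6, 95.7 and 74.7 CPM in db/m replicates 1 to 4 and at 93.3, 113, 75.2 and 117 CPM in db/db replicates 1 to 4. The groups overlapped. db/m replicate 3, the library with the highest adipocyte marker sum, had the highest db/m level of Cpt1a and the lowest db/m level of Cpt1b, Slc25a20 and Cpt2. The log2 fold change of Cpt1a was 0.45 (SE 0.19, 95% interval 0.02 to 0.89, edgeR adjusted p = 0.371), and 0.55 (95% interval 0.15 to 0.95) without db/m replicates 1 and 3.

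Cpt1c (ENSMUSG00000007783, chr7:44959372-44974851, minus strand) encodes the isoform known from neurons. Its counts were 80, 22, 81 and 27 in db/m replicates 1 to 4 and 46, 41, 35 and 61 in db/db replicates 1 to 4. db/m replicates 1 and 3, at 3.52 and 3.35 CPM, were above every other library, and db/m replicates 2 and 4, at 1.08 and 1.28 CPM, were below every db/db library (1.61 to 3.26 CPM). The summed neuron and Schwann cell markers were also highest in db/m replicates 1 and 3, at 44.2 and 24.2 CPM against 10.2 to 17.4 CPM, with 3 of 6 markers above all other libraries. Snap25 and Syt1 were at 0 counts in 4 of the other 6 libraries. Adipocyte, atrial and fibroblast marker sums were highest in this pair too. The part of any of these cell types in the Cpt1c level was not tested. The log2 fold change was 0.00 (SE 0.43, 95% interval -0.96 to 0.95, edgeR adjusted p = 0.999) over 8 libraries and 0.96 (95% interval 0.08 to 1.84, edgeR adjusted p = 0.424) without these 2.

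**Figure D3:**
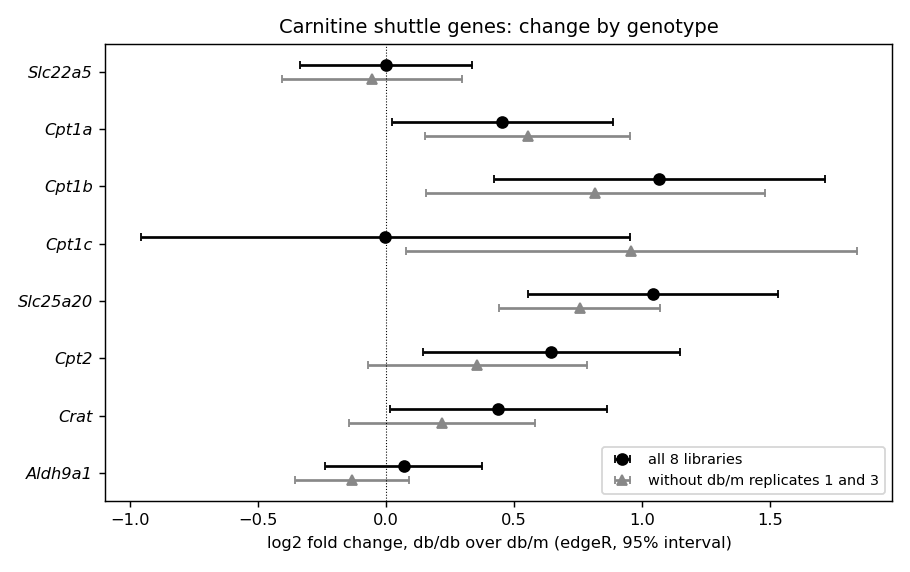
Log2 fold change of db/db over db/m (x axis) with its 95% interval from edgeR for the 8 tested shuttle genes, over all 8 libraries (circles) and without db/m replicates 1 and 3 (triangles). Slc25a20, Cpt1b and Cpt1a keep intervals above 0 in both fits, those of Cpt2 and Crat reach below 0 in the second fit, and Cpt1c moves from 0.00 to 0.96.

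Cpt2 (ENSMUSG00000028607, chr4:107903981-107923610, minus strand), the matrix-side transferase, was at 240, 370, 198 and 310 CPM in db/m replicates 1 to 4 and at 449, 468, 308 and 522 CPM in db/db replicates 1 to 4. In 3 of 4 db/db libraries it was above every db/m library, and db/db replicate 3 lay within the db/m range. The means were 279 ± 75.9 and 437 ± 91.2 CPM (SD, n = 4), and the log2 fold change was 0.64 (SE 0.23, 95% interval 0.14 to 1.15, edgeR adjusted p = 0.318). It was 0.36 (95% interval -0.07 to 0.78) without db/m replicates 1 and 3.

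Crat (ENSMUSG00000026853, chr2:30400471-30415813, minus strand) encodes carnitine acetyltransferase, which moves acetyl and other short acyl groups between coenzyme A and carnitine. It was the member with the most counts, at 461, 676, 464 and 602 CPM in db/m replicates 1 to 4 and 853, 702, 566 and 865 CPM in db/db replicates 1 to 4. Here too db/db replicate 3 lay within the db/m range and the other 3 above it. The log2 fold change was 0.44 (SE 0.19, 95% interval 0.01 to 0.86, edgeR adjusted p = 0.377). It was 0.22 (95% interval -0.14 to 0.58) without db/m replicates 1 and 3.

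The genes of carnitine uptake and synthesis had log2 fold changes near 0. Slc22a5 (ENSMUSG00000018900, chr11:53864542-53891660, minus strand), the sodium-dependent carnitine transporter of the plasma membrane, ranged from 39.1 to 49.1 CPM in db/m and from 34.0 to 53.0 CPM in db/db. Its log2 fold change was 0.00 (SE 0.15) with a 95% interval of -0.34 to 0.33, and -0.06 without db/m replicates 1 and 3. Aldh9a1 (ENSMUSG00000026687, chr1:167349991-167368532, plus strand), the aldehyde dehydrogenase of carnitine synthesis, was at 34.9, 48.1, 38.3 and 50.0 CPM in db/m replicates 1 to 4 and between 43.7 and 46.9 CPM in db/db. The lower db/m values were those of replicates 1 and 3. Its log2 fold change was 0.07 (SE 0.14, 95% interval -0.24 to 0.38), and -0.13 without those libraries. For both genes the 8-library intervals leave out the 2.06-fold difference seen for Slc25a20.

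Bbox1 (ENSMUSG00000041660, chr2:110262697-110314560, minus strand), which encodes the last enzyme of carnitine synthesis, had 10 counts in db/m replicate 1, 9 in db/m replicate 3 and 0 in each of the other 6 libraries. A count of 0 in a db/db library allows up to 3 counts, or 0.138 to 0.162 CPM. The only counts fell in the 2 libraries with adipocyte and atrial markers, and they were too low for the filter of the test. With no filter on low counts edgeR gave an adjusted p of 0.485. With Tmlhe unmeasured, Aldh9a1 was the only synthesis gene with counts in every library.

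The step from carrier to transferase was compared within libraries, where library size cancels. The log2 ratio of Slc25a20 to Cpt2 (CPM with 0.5 added) was -0.98, -1.20, -1.31 and -1.04 in db/m replicates 1 to 4 and -0.82, -0.81, -0.51 and -0.71 in db/db replicates 1 to 4. All 4 db/db ratios were above all 4 db/m ratios. The difference was 0.42 (exact two-sided permutation p = 0.0286, the smallest this design allows, adjusted p = 0.0429 over 3 ratios). The ratio of Slc25a20 to Crat averaged -2.13 ± 0.28 over db/m libraries and -1.49 ± 0.17 over db/db libraries (SD, n = 4), a difference of 0.64 (exact permutation p = 0.0286, adjusted p = 0.0429). In these libraries Slc25a20 thus differed more between the genotypes than Cpt2 or Crat did. The 2 ratios are not independent results. Both hold Slc25a20, and Cpt2 and Crat varied together (Pearson's r of log2 CPM 0.95 over the 8 libraries). Each reached an adjusted permutation p of 0.0429 only because both had the smallest raw p. Both calls were lost without db/m replicate 3 or without db/db replicate 3 (exact permutation test, adjusted p = 0.0857 in each case). In each case 1 ratio kept the smallest possible raw p, 0.0286, and the other rose to 0.0571. The ratio that kept it was Slc25a20 to Cpt2 without db/m replicate 3 and Slc25a20 to Crat without db/db replicate 3. For that ratio the adjusted p could then not pass. On 6 libraries, without db/m replicates 1 and 3, the differences were 0.41 and 0.54, with an adjusted exact p of 0.1, where the smallest raw p possible is 0.0667. The ratio of Cpt1a to Cpt1b differed by -0.47 (exact permutation p = 0.286, adjusted p = 0.286), and its highest value, 5.72, was that of db/m replicate 3.

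**Figure D4:**
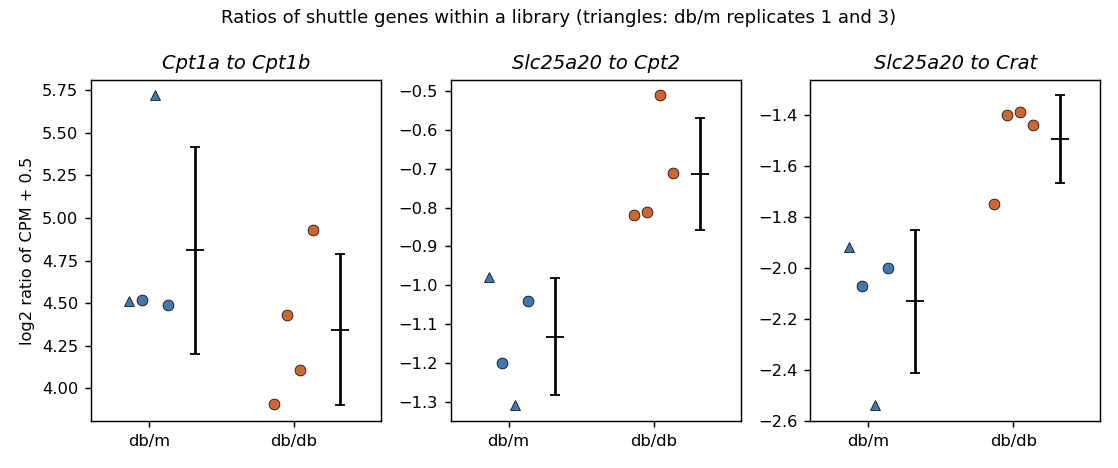
Log2 ratio of CPM plus 0.5 within each library (y axis, not starting at 0) for 3 pairs of shuttle genes in db/m and db/db. Points are libraries, triangles mark db/m replicates 1 and 3, and bars are mean ± SD. The db/db ratios of Slc25a20 to Cpt2 and to Crat all lie above the db/m ratios, while those of Cpt1a to Cpt1b overlap.

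Levels of several members also varied together between libraries of 1 genotype. Over the 8 libraries Pearson's r of log2 CPM was 0.94 for Cpt2 with Slc25a20, 0.95 for Cpt2 with Crat and 0.87 for Slc25a20 with Crat. After centring within each genotype the values were 0.92, 0.92 and 0.77. Slc22a5 and Aldh9a1, which act outside the mitochondrion, also had positive within-genotype values with these genes. They were 0.77 and 0.71 with Crat, 0.67 and 0.70 with Cpt2, and 0.40 and 0.67 with Slc25a20. The within-genotype values of Cpt1c with Crat, Cpt2 and Slc25a20 were -0.31, -0.40 and -0.47. Those of Cpt1b with Slc25a20, Cpt2 and Crat were 0.52, 0.45 and 0.39. Cpt1a was less alike, at 0.50 with Cpt2 and 0.48 with Slc25a20, and 0.05 and -0.22 within genotype. These are descriptions over 8 libraries that share their scaling and, in part, the same outlying pair. Among 10100 genes with a mean of at least 10 CPM, the 5 most like Slc25a20 were Acaa2 (r = 0.995), Acss1 (0.991), Cdkn2d (0.990), Decr1 (0.990) and Hsdl2 (0.989). Acaa2 and Decr1 encode mitochondrial beta-oxidation enzymes and Acss1 a mitochondrial acetyl-CoA synthetase, and Cdkn2d encodes an inhibitor of cyclin-dependent kinases. Cpt2 had 126 genes more like Slc25a20 than itself, Crat 522 and Cpt1a 3490.

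The genes around the shuttle were read from 6 further lists, in none of which a gene passed the adjusted threshold in edgeR over 8 libraries. Over all genes tested, 5.12% were higher and 7.84% lower in db/db at an unadjusted p under 0.05, and 47.7% had a positive log2 fold change. The shares without db/m replicates 1 and 3 were 5.63% higher and 5.04% lower. In what follows each log2 fold change over 8 libraries is followed by that over the 6 libraries left without this pair.

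Mitochondrial beta-oxidation after the shuttle stood highest. All 16 genes had a positive log2 fold change, and 14 were higher and 0 lower at an unadjusted p under 0.05, against the 5.12% and 7.84% of all genes. The median was 0.76 over 8 libraries and 0.46 over 6, where again 14 were higher and 0 lower. Acaa2, the thiolase of the last step, averaged 477 ± 127 CPM in the db/m and 908 ± 116 CPM in the db/db libraries (log2 fold change 0.93, SE 0.21, over 6 libraries 0.68). Acadl, the long-chain acyl-CoA dehydrogenase, had 527 ± 152 and 970 ± 153 CPM (0.88, SE 0.23, over 6 libraries 0.61). Acadm, the medium-chain enzyme, had 441 ± 180 and 849 ± 52.3 CPM (0.94, SE 0.30, over 6 libraries 0.58), and shares sequence with the counted pseudogene Gm5131, so its level is uncertain. Levels of Hadhb and Etfa, also among the 14, are uncertain too. Their pseudogenes Gm13910 and Gm15285 took 443717 and 48511 counts against their own 65412 and 3198. Etfb and Acadvl, likewise among the 14, share 58.2% and 42.9% of their exon bases with other genes. The 2 genes that missed the unadjusted threshold over 8 libraries, looked up after their values were seen, were Acad9 (0.10, over 6 libraries 0.05) and Echs1 (0.39, over 6 libraries 0.03).

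Malonyl-CoA is the inhibitor of the first step of the shuttle. Of 9 genes of its control, 2 were higher and 1 lower at an unadjusted p under 0.05 both over 8 and over 6 libraries, beside the shares of all genes given above, and the median log2 fold change was 0.01 and 0.09. Mlycd, malonyl-CoA decarboxylase, which removes the inhibitor, averaged 152 ± 38.3 CPM over db/m and 260 ± 48.5 CPM over db/db libraries, a log2 fold change of 0.78 (SE 0.21, edgeR adjusted p = 0.238, over 6 libraries 0.50). Acacb, the acetyl-CoA carboxylase at mitochondria that makes it, had 354 ± 64.5 and 379 ± 71.2 CPM (0.10, SE 0.18, over 6 libraries 0.12). Prkaa2, a catalytic subunit of the AMP-activated kinase that inhibits the carboxylases, had 300 ± 16.0 and 249 ± 28.2 CPM (-0.27, SE 0.13, edgeR adjusted p = 0.400, over 6 libraries -0.27). The other 2 past the unadjusted threshold over 8 libraries, looked up after their values were seen, were Prkab2 (0.36, over 6 libraries 0.27) and Acaca (-2.25, over 6 libraries -0.10). Over 6 libraries those past it, also looked up, were Mlycd and Prkag2 (0.35) as higher and Prkaa2 as lower. Acaca stood at 50.0 and 56.1 CPM in the adipocyte-marked db/m replicates 1 and 3 and at 5.79 and 7.65 CPM in db/m replicates 2 and 4, beside 4.68 to 7.23 CPM in db/db. Its near-identical pseudogene Gm5182 took 13213 counts against its own 3281, so its level is uncertain as well.

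The long-chain acyl-CoA synthetases, which make the substrate of the shuttle, differed in direction. Acsl1, the main heart isoform, averaged 875 ± 136 CPM over db/m and 1230 ± 114 CPM over db/db libraries (log2 fold change 0.49, SE 0.16, edgeR adjusted p = 0.296, over 6 libraries 0.31), with every db/db library above every db/m library. The other 4 genes had negative values, among them Acsl4 (-0.51, over 6 libraries -0.18) and Acsl5 (-0.27, over 6 libraries -0.09). Acsl3 (-0.53, over 6 libraries -0.57) and Acsl6 (-0.44, over 6 libraries -0.36) were looked up after their values were seen. Acsl3 was lower at an unadjusted p under 0.05 in both fits, and Acsl4 only over 8 libraries. The list's median was -0.44 with 1 gene higher and 2 lower at an unadjusted p under 0.05, and -0.18 with 1 higher and 1 lower over 6 libraries.

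Other carnitine transport and transfer had a median of -0.31 over 5 tested of 7 genes, and -0.25 over 6 libraries, with 0 higher and 1 lower at an unadjusted p under 0.05 in both. Crot, the peroxisomal octanoyltransferase, had 28.0 ± 0.68 and 32.8 ± 2.03 CPM (0.23, SE 0.11, over 6 libraries 0.20). Slc22a4 had 4.45 ± 0.483 and 3.59 ± 0.754 CPM (-0.31, SE 0.22, over 6 libraries -0.25). Slc25a29 had 10.2 ± 3.89 and 8.15 ± 1.62 CPM (-0.33, SE 0.29, over 6 libraries -0.72), and Slc16a9 had 8.25 ± 1.92 and 5.11 ± 1.10 CPM (-0.69, SE 0.23, edgeR adjusted p = 0.299, over 6 libraries -0.41). The 1 gene past the unadjusted threshold was Slc16a9 over 8 libraries and Slc25a29 over 6.

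The transcription factors and coactivators known to drive these genes had log2 fold changes at or below 0.01 over 8 libraries. Of 7 PPAR and PGC-1 regulators 1 had a positive value, Esrra at 0.01 (SE 0.15, over 6 libraries -0.14), and the median was -0.17, or -0.21 over 6 libraries. Rxra had -0.13 (SE 0.12, over 6 libraries -0.14) and Ppargc1a -0.17 (SE 0.13, over 6 libraries -0.25). Pparg, looked up after its value was seen, had -0.02 (SE 0.24), and 0.24 (SE 0.23) over 6 libraries. The 1 gene past the unadjusted threshold in both fits, looked up after its value was seen, was Ppard (-0.35, SE 0.11, edgeR adjusted p = 0.297, over 6 libraries -0.42). Ppara, also looked up, stood at 117 CPM in db/m replicate 3, at 42.7, 49.4 and 50.7 CPM in db/m replicates 1, 2 and 4, and between 28.8 and 46.8 CPM in db/db (-0.69, over 6 libraries -0.32).

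Among 8 relatives of Slc25a20 in the mitochondrial carrier family the median was 0.29, with 1 higher and 1 lower at an unadjusted p under 0.05, and over 6 libraries 0.11, with 1 higher and 0 lower. The most abundant were Slc25a4, the heart ATP/ADP carrier (0.42, SE 0.29, over 6 libraries 0.11), Slc25a11, the oxoglutarate carrier (0.49, SE 0.26, over 6 libraries 0.16), and Slc25a3, the phosphate carrier (0.45, SE 0.27, over 6 libraries 0.11). The 2 past the threshold over 8 libraries, looked up after their values were seen, were Slc25a42, a coenzyme A carrier (0.80, over 6 libraries 0.55), and Slc25a1, the citrate carrier (-1.24, over 6 libraries 0.06). Slc25a1 stood at 42.7 and 20.3 CPM in db/m replicates 1 and 3 and at 7.61 and 8.45 CPM in db/m replicates 2 and 4, beside 8.16 to 8.66 CPM in db/db.

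**Figure D5:**
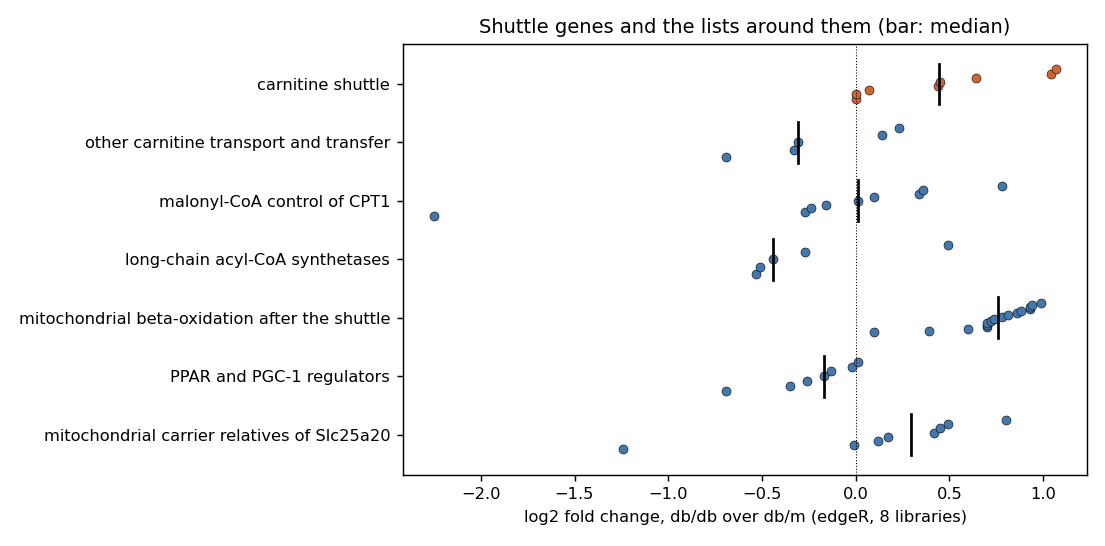
Log2 fold change of db/db over db/m from edgeR over all 8 libraries (x axis) for the tested shuttle genes and the tested genes of 6 surrounding lists (rows). Points are genes and the black bar is the median, which runs from -0.44 for the long-chain acyl-CoA synthetases to 0.76 for beta-oxidation after the shuttle, with the shuttle at 0.45.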

How the data were processed

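Per the labels' protocols, libraries were made from 3 µg of total heart RNA with a NEBNext Ultra kit. Build mm10 is named in the submitters' processing notes. Not given in the sources used here are the aligner, the counter and the use of strand. The authors deposited raw read counts per gene with exon coordinates and an exon length in bases, and the 8 single-library files equal the joint table. Of 55573 identifiers, 55480 were named through GENCODE M21. The 37 mitochondrial genes were at 0 counts.

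Counts were tested with edgeR 4.0.16 (TMM scaling, filterByExpr, robust quasi-likelihood test, Benjamini-Hochberg over 17411 genes, threshold 0.05). In counts simulated for this comparison over 17411 genes, it recovered 94 of 100 genes changed by 2 on the log2 scale and 53 of 100 changed by 1, and called 11 unchanged genes. The simulated counts held no library that stood apart, and the changed genes had means of at least 5 CPM, above Cpt1b and Cpt1c. These shares therefore do not give the recovery to be had in the real libraries. DESeq2 1.42.0, limma-voom 3.58.1, other scalings and filters, a replicate block and leaving out each library were tried. Leaving out db/m 1 and 3 together was chosen after seeing the data. Exon sharing was measured with bedtools 2.31.1 and copies with BLAST 2.17.0 (at least 95% identity over 100 bases). Named genes were all members, the 3 highest per kilobase in each list, Crot, Slc22a4, Acacb, Mlycd and Acsl1, genes overlapping members, and the 5 most like Slc25a20. Members and lists were chosen with earlier results of these data known. Within a group, library pairs differed by 14.0 to 221 chi-square units per degree of freedom, so none was a duplicate. Same-numbered db/m and db/db libraries deviated with correlations of -0.0882 to 0.0561, so numbers were not treated as pairs.

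Other marker sums, over all 8 libraries in CPM, were 1320 to 1860 (endothelial), 982 to 1880 (fibroblast) and 292 to 926 (macrophage). They were 1790 to 2220 (smooth muscle and pericyte), 0.374 to 2.27 (skeletal muscle) and 1290 to 2950 (erythroid).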

Additional observations from a re-analysis of the deposited data

How the results depend on the processing

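The number of members called was 0 with edgeR over 8 libraries (background 0.00574%). It was 2 with DESeq2 (Slc25a20 and Cpt1b, background 1.77%) and 1 with limma-voom (Slc25a20, background 0.580%). On leaving out each library in turn it was 0 to 1, the 1 being Slc25a20 without db/m replicate 3 (background 0.600%). The replicate block called 0 members (background 0.0287%) and left 4 of the 5 past an unadjusted p of 0.05 (background 11.5%, either direction). That count of 5 (background 13%, either direction) ran from 2 to 5 on leaving out each library, where the background ran from 8.69% to 16.2%. It was 6 with no filter (background 9.34%), Bbox1 being added as lower. It was 2 when db/m replicate 1 or replicate 4 of db/db was left out, and 3 when db/m replicate 4 or either of db/db replicates 1 and 2 was. The members whose groups do not overlap, 2 with all libraries, ran from 2 to 4 (4 without db/db replicate 3, background 14.5%) and were 5 without db/m replicates 1 and 3 (background 21.6%). On leaving out each library the ratio differences ran from 0.35 to 0.47 for Slc25a20 to Cpt2 and from 0.50 to 0.72 for Slc25a20 to Crat. They were 0.41 and 0.54 without db/m replicates 1 and 3. The medians of other carnitine transport (-0.34 to -0.13) and of the acyl-CoA synthetases (-0.53 to -0.26) moved by more than the spread between libraries, the second also with limma-voom (-0.28) and without db/m replicates 1 and 3 (-0.18). Log2 fold changes near 0 changed sign. Cpt1c was 0.01 with DESeq2, 0.50 with limma-voom, 0.01 with DESeq2 size factors in edgeR, 0.00 with upper quartile scaling, 0.03 with no filter, 0.12 with the replicate block, -0.23 to 0.28 on leaving out each library and 0.96 without db/m replicates 1 and 3. Slc22a5 was 0.01 with DESeq2, limma-voom and DESeq2 size factors, 0.02 with no filter and -0.10 to 0.10 on leaving out each library. Aldh9a1 was -0.01 with limma-voom, -0.01 to 0.17 on leaving out each library and -0.13 without db/m replicates 1 and 3. The causes were not tested. Slc25a20, Cpt1b, Cpt2, Cpt1a and Crat kept a positive log2 fold change in every alternative run. Cpt1b and Cpt1c had 22 to 107 counts per library, against 738 or more for the other 6 tested members.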
